A study of Mus musculus with 4 samples.

Results

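The dystrophin and utrophin glycoprotein complex was followed through its 8 genes Utrn, Dmd, Dag1, Sgca, Sgcb, Sgce, Sntb1 and Dtna. All probe sets whose single symbol in the platform gene table was one of these genes were taken, which gave 12 probe sets of the 12488 on the array, with at least 1 for each gene. The array names 8251 genes in this way. Total RNA of mouse skeletal muscle had been hybridised to 4 arrays, 2 with the code J in their titles (1a and 1c) and 2 with the code NJ (1a and 1d), all marked 0 h. The series title names the neuromuscular junction, where a motor nerve meets a muscle fibre. All 4 array titles also carry the code Ctr. The labels do not expand Ctr, J or NJ, give no strain, age, sex or muscle, and name no treatment. Nothing in them says whether the arrays came from different animals, so the spread between arrays may be technical.

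The complex joins the actin cytoskeleton of the muscle fibre to the basement membrane around it. Dystrophin (Dmd) or its relative utrophin (Utrn) binds actin inside the fibre, dystroglycan (Dag1) spans the membrane and binds laminin outside, the sarcoglycans (Sgca, Sgcb, Sgce) stabilise that link, and syntrophin (Sntb1) and dystrobrevin (Dtna) are cytoplasmic adaptors. In adult fibres dystrophin lines the whole sarcolemma, while utrophin is concentrated at the neuromuscular and myotendinous junctions, and loss of dystrophin causes Duchenne muscular dystrophy.

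The sequences around annotated transcription starts of Utrn and Dmd are shown because setting one gene against the other is the main comparison here. Of the 8 genes, 5 (Utrn, Dmd, Dag1, Sgca and Sgcb) were matched to a RefSeq window in GRCm38.p6, each covering 250 bases before to 50 bases after an annotated start. Capitals mark the E-box letters CANNTG, which myogenic factors of the MyoD family bind. The N-box letters CCGGAA, or TTCCGG on the other strand, a motif known from synaptic genes of muscle, were searched on both strands as well. The Utrn window lies at chr10:12861686-12861985 on the minus strand, and the upstream window of the 2 given for Dmd at chrX:82948620-82948919 on the plus strand.
Utrn: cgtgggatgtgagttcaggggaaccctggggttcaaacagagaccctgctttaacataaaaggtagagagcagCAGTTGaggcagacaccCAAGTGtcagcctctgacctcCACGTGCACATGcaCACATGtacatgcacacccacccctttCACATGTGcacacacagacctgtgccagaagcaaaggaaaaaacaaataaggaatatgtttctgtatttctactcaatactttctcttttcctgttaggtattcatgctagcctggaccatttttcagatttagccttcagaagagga
Dmd: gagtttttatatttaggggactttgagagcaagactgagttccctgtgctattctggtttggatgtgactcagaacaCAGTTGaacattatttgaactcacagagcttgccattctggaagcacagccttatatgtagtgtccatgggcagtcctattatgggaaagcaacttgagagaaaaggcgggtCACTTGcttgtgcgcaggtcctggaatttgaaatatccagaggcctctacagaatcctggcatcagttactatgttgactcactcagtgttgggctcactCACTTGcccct
The Utrn window held 7 E-boxes, some of them overlapping, the Dmd window shown 3 and the other Dmd window, at chrX:85048045-85048344, 0. The N-box letters were in none of these windows, nor in those of the other 3 genes. Sequence outside the windows, where other starts of a gene may lie, was not searched. Among all 32851 windows of the table, 72.3% held an E-box and 14.9% an N-box. In the Utrn window the bases just before the annotated start are rich in pyrimidines and end in ag, as introns do. That window may thus lie inside the gene and hold no promoter. Which start the RNA came from was not measured by these probe sets.

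Differences below are J minus NJ on the scale log2(signal + 32) after quantile normalisation, which understates changes of dim genes, with the standard error from limma. The test covered the 9316 probe sets whose mean lay above the 25th percentile, near a signal of 117. Of the 12 members' probe sets 10 passed this filter, and all 8 genes kept at least 1. The deposited signals had been scaled to almost the same trimmed mean on each array. On the log2 scale before quantile normalisation, J 1c and NJ 1d had a Pearson correlation of 0.93 across probe sets, whereas J 1a correlated at 0.82 with each of the other 3 arrays, and the arrays thus did not pair by group. The columns of J 1a and NJ 1a hold more decimals than those of J 1c and NJ 1d, a split that cannot be told apart from label 1a against the others, so the members' differences are also given for the 1a pair (J 1a minus NJ 1a) and for the 1c/1d pair (J 1c minus NJ 1d). Of 15 skeletal muscle markers all had a probe set, and their signals summed to 1206320 and 288489 on the J arrays 1a and 1c, against 995302 and 815902 on NJ 1a and 1d, with J 1c lowest. The brightest signal of any probe set was 231943 on J 1a and 41086 on J 1c, against 184184 on NJ 1a and 125534 on NJ 1d, so that J 1c had the lowest maximum.

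Signals of Sgce and of the brighter Dtna probe set were higher on J 1a and J 1c than on either NJ array, those of Sntb1 and of the brighter Dag1 probe set were lower, and the signals of Dmd, Sgca, Sgcb and the brighter Utrn probe set overlapped between groups. None of these differences passed the test. Of the 10 probe sets 0 were higher and 0 lower at an adjusted p under 0.05 (limma, Benjamini-Hochberg over 9316 probe sets, 0.9998 for each of the 10), and 0 of all probe sets were called in either direction (0%). At an unadjusted p under 0.05 limma called 0 of the 10 members, against 198 of all probe sets (2.13%). All 10 of their 95% intervals included 0, so neither a change nor its absence was shown for any member.

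**Figure D1:**
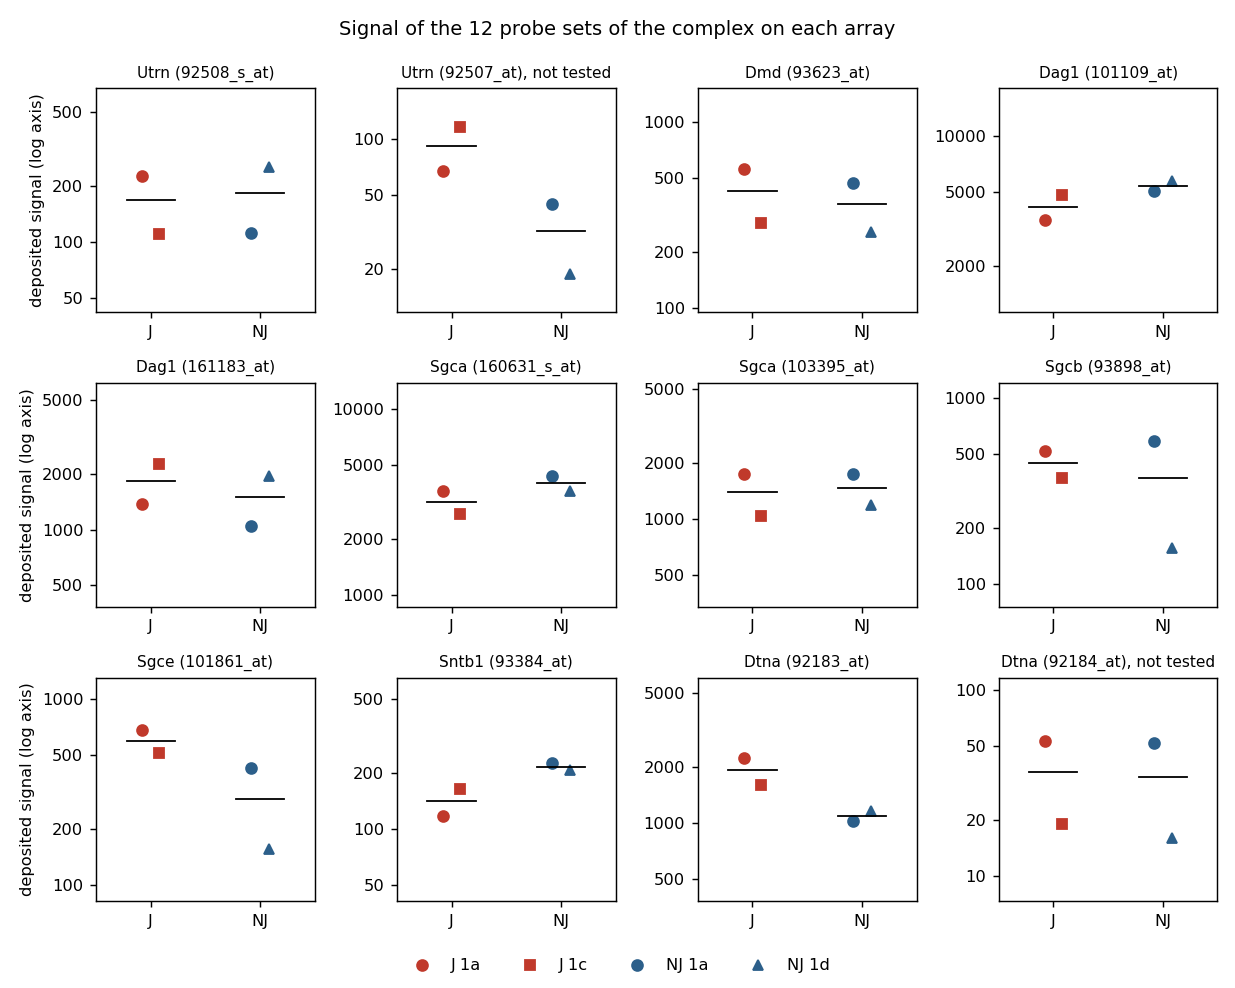
Deposited signal (log axis, each panel spanning the same fold range) of the 12 probe sets on the J arrays (red) and NJ arrays (blue), with circles for label 1a, the square for 1c, the triangle for 1d and a bar at each group's mean. The groups are apart for Sgce, for Sntb1 and for 1 probe set each of Utrn, Dag1 and Dtna, and those of Utrn (92507_at) and Dtna (92184_at) marked as not tested lay under the brightness filter.

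Utrophin gave different values on its 2 probe sets. The brighter, 92508_s_at, whose suffix marks probes that match several transcripts, had signals of 227 and 111 on J 1a and J 1c, against 112 and 255 on NJ 1a and NJ 1d. The highest value and the lowest thus belonged to different groups, with 1 high and 1 low array in each. Its difference was −0.14 ± 0.83 (limma, 95% interval −2.00 to 1.72), made of 0.79 in the 1a pair and −1.07 in the 1c/1d pair. It was 0.12 without J 1c and 0.54 without NJ 1d, so its direction turned on either array. The dimmer, 92507_at, had 67.3 and 117 on the J arrays, against 45.0 and 18.9 on the NJ arrays, without overlap. Its difference was positive in the 1a pair (0.34) and in the 1c/1d pair (1.45). It lay at the 8.73 percentile of mean brightness, under the filter, and with no filter applied its difference was 0.90 ± 0.53 (limma, adjusted p = 0.9999).

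Dystrophin, represented by 93623_at alone, had signals of 560 and 285 on the J arrays and 467 and 257 on the NJ arrays. The 1a array was the higher in each group, and the groups overlapped. The difference was 0.13 ± 0.72 (95% interval −1.50 to 1.76), with 0.21 in the 1a pair and 0.05 in the 1c/1d pair. Leaving out J 1a turned it to −0.20, and leaving out NJ 1d to −0.11. The spread between replicates, 0.65 in J and 0.49 in NJ on the log2 scale, was larger than the difference.

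Levels of different probe sets cannot be set against each other, so utrophin was compared with each other member by its J minus NJ difference, at the brightest probe set of each gene. Utrn minus Dmd was −0.27, from −0.14 for Utrn and 0.13 for Dmd. The value was 0.58 in the 1a pair and −1.12 in the 1c/1d pair, opposite in sign, and it was 0.65 without NJ 1d (an exact two-sided permutation test of the 4 arrays gave p = 1). Against the sarcoglycans it was 0.20 for Sgca, −0.50 for Sgcb and −1.15 for Sgce. Against Dag1, Sntb1 and Dtna it was 0.21, 0.46 and −0.92. The comparison with Dtna was negative in the 1a pair (−0.40) and in the 1c/1d pair (−1.44), whereas the other 6 were positive in the first of these and negative in the second. All 7 share the same Utrn values, 0.79 in the 1a pair and −1.07 in the 1c/1d pair, so their signs are not independent. With 2 arrays against 2 the exact two-sided test cannot give a p below 0.333, the value for Dtna, and over the 7 comparisons every Benjamini-Hochberg adjusted value of the permutation test was 1.

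**Figure D2:**
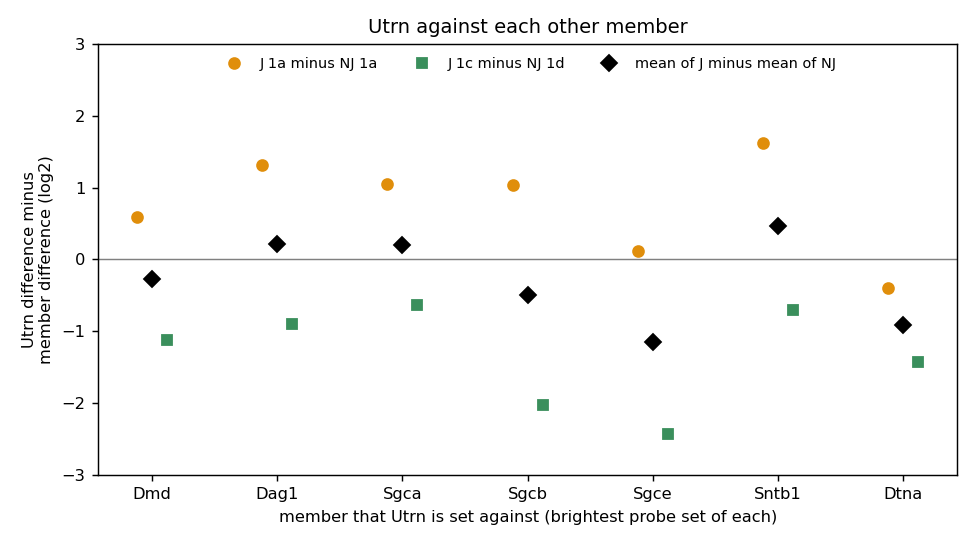
Utrn difference minus the difference of each other member (log2, brightest probe sets), in the 1a pair (orange circles), in the 1c/1d pair (green squares) and as the mean of J minus the mean of NJ (black diamonds). All green squares lie below 0, from −0.64 for Sgca to −2.43 for Sgce, and all orange circles but that of Dtna lie above 0, up to 1.62 for Sntb1. The comparisons share the same Utrn values, 0.79 in the 1a pair and −1.07 in the 1c/1d pair, and are not independent.

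Dystroglycan, made as 1 precursor that is cut into the laminin-binding alpha chain and the membrane-spanning beta chain, differed in direction between its probe sets. Probe set 101109_at had signals of 3524 and 4786 on the J arrays, against 5022 and 5735 on the NJ arrays. Both J values were lower, and the difference was −0.35 ± 0.35 (95% interval −1.14 to 0.45), or 1.27-fold lower in J. Probe set 161183_at had 1369 and 2259 in J and, on the NJ arrays, 1045 and 1935, and the difference was 0.27 ± 0.48. Here the 1a array was the lower in each group, and the groups overlapped. Each probe set kept its sign in the 1a pair (−0.52 and 0.37) and in the 1c/1d pair (−0.17 and 0.16). For 161183_at the difference was −0.17 without NJ 1a and −0.06 without J 1c, while 101109_at stayed between −0.50 and −0.19 with each array left out. The mean of the probe sets gave −0.04 for the gene.

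Among the sarcoglycans the differences were negative for Sgca and positive for Sgcb and Sgce, and none passed the test. Alpha-sarcoglycan, Sgca, a subunit of striated muscle mutated in limb-girdle muscular dystrophy, had signals of 3628 and 2736 in J at probe set 160631_s_at, against 4366 and 3611 in NJ. The suffix of this probe set, like that of the brighter Utrn probe set, marks probes that match several transcripts. The lower NJ value lay just under the higher J value, and the difference was −0.34 ± 0.39, with −0.25 in the 1a pair and −0.43 in the 1c/1d pair. At 103395_at the signals were 1749 and 1038 in J and, on the NJ arrays, 1747 and 1190, and the difference was −0.14 ± 0.47. The 1a arrays of the groups were nearly equal there, at −0.02, against −0.25 in the 1c/1d pair, and the difference was 0.13 without NJ 1a and 0.24 without J 1c. At 160631_s_at it stayed negative, from −0.63 to −0.06, with each array left out.

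Beta-sarcoglycan, Sgcb, a core subunit of the complex, had signals of 520 and 370 on the J arrays, against 585 and 155 on the NJ arrays. Both extremes were NJ arrays, so that the J values lay between them. The difference of 0.36 ± 0.78 consisted of −0.24 in the 1a pair and 0.96 in the 1c/1d pair, and it was −0.34 without NJ 1d.

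Epsilon-sarcoglycan, Sgce, the widely expressed relative of Sgca that is mutated in myoclonus dystonia, had signals of 683 and 516 on the J arrays, against 426 and 157 on the NJ arrays. Both J arrays were higher, and NJ 1d was far below the rest. The difference was 1.02 ± 0.72 (95% interval −0.60 to 2.64), or 2.02-fold, with 0.67 in the 1a pair and 1.36 in the 1c/1d pair. It was 0.53 without NJ 1d and 1.52 without NJ 1a, the extremes over leaving out each array. Markers of smooth muscle and pericytes, cells in which Sgce is also known to be expressed, had their lowest summed signal on the same array. Signals of the 9 measured of 11 such genes summed to 12657 and 10112 in J and, on the NJ arrays, 11134 and 6966, and all 9 had positive differences with a median of 0.42. All 9 were positive on the deposited scale and with each array centred on its median as well. Their median was 0.13 in the 1a pair, where Acta2, Myh11 and Rgs5 were negative, and 0.39 in the 1c/1d pair, where Actg2 was. Of 14 fibroblast markers 13 were measured, 11 of them positive, with sums of 129016 and 54896 in J and, on the NJ arrays, 73351 and 61004. Dcn alone held most of these sums on J 1a, NJ 1a and NJ 1d. Without it, a step added after seeing the data, they were 46142 and 29592 in J and, on the NJ arrays, 30926 and 24870. The lowest array was then NJ 1d in place of J 1c. No marker of either list was at 0, and their part in the Sgce difference was not tested. NJ 1d also had the lowest median signal of the arrays, 280, against 376 on J 1a, 300 on J 1c and 366 on NJ 1a. Schwann cell markers had their lowest sum on NJ 1d as well (3917), while endothelial and immune markers had theirs on J 1c. In such bulk samples, fewer cells of a type and less RNA per cell cannot be told apart.

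**Figure D3:**
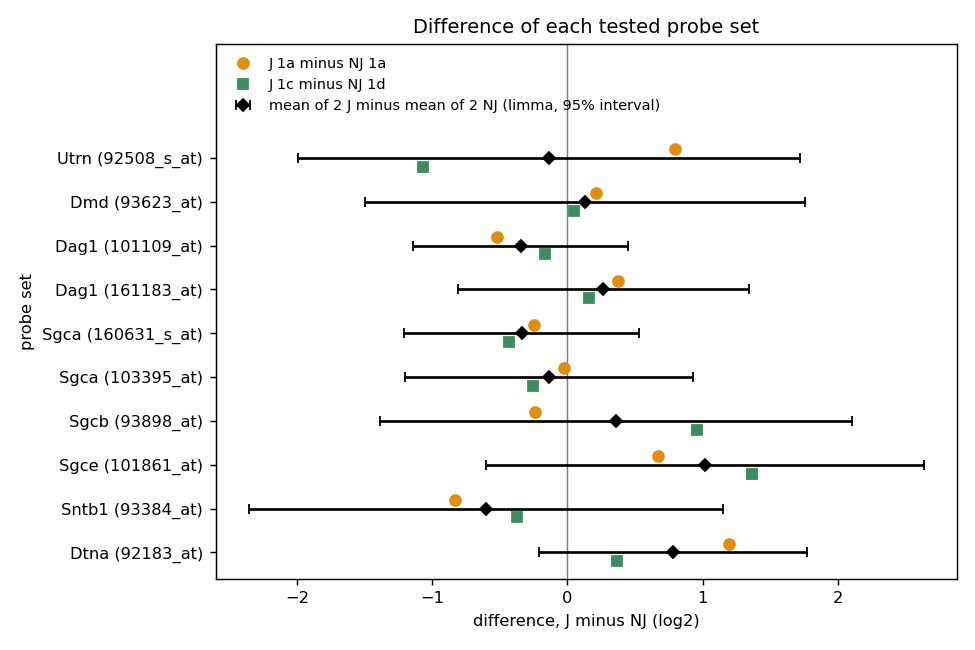
Difference of J minus NJ (log2) for the 10 tested probe sets as the limma estimate with its 95% interval (black diamonds and bars), in the 1a pair (orange circles) and in the 1c/1d pair (green squares). All 10 intervals include 0, and the coloured points lie on opposite sides of 0 for Utrn and Sgcb.

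The adaptors on the cytoplasmic side also differed in direction. Beta-1-syntrophin, Sntb1, which binds signalling proteins through its PDZ domain, had signals of 117 and 163 on the J arrays, against 225 and 207 on the NJ arrays. Both J values were lower, and the difference was −0.60 ± 0.78 (95% interval −2.35 to 1.15), with −0.83 in the 1a pair and −0.37 in the 1c/1d pair. Leaving out single arrays gave −0.98 to −0.23. Alpha-dystrobrevin, Dtna, which binds dystrophin and syntrophins and in mice is needed for stable acetylcholine receptor clusters, had signals of 2251 and 1610 in J at 92183_at, against 1023 and 1162 in NJ. Both J arrays were higher, and the difference was 0.78 ± 0.44 (95% interval −0.21 to 1.78), or 1.72-fold. It was 1.20 in the 1a pair, 0.37 in the 1c/1d pair, and 0.49 to 1.07 when single arrays were left out. Its unadjusted p, 0.110 in limma, was the smallest of the members and ranked 578 among the 9316 probe sets. The second Dtna probe set, 92184_at, had 53.3 and 19.0 in J and, on the NJ arrays, 52.0 and 16.0. These values lay at the 2.70 percentile of brightness, followed the label more than the group, with the 1a array the higher in each, and differed by −0.01 ± 0.38 with no filter applied.

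Across the tested members, the 5 positive and 5 negative differences had a median of −0.003. At the brightest probe set of each of the 8 genes it was −0.004, and 0.06 on the deposited scale, so its sign turned with the scale. All 9316 probe sets had a median of −0.01, and the median absolute difference was 0.34 for the members and 0.39 for all. The J arrays lay wholly above the NJ arrays for 2 of the 10, as for 13.6% of all probe sets, and wholly below them for another 2, as for 12.9%. The difference had the same sign in both array pairs for 8 of the 10 probe sets, 4 positive (24.9% of all probe sets) and 4 negative (24.5%), and opposite signs for 2, Utrn and Sgcb. A limma fit with a term for label 1a against the other labels called 8 of all probe sets (0.0859%) and 0 members, the smallest adjusted p among members being 0.90, for Dtna. With counts this small the members' shares are a description.

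**Figure D4:**
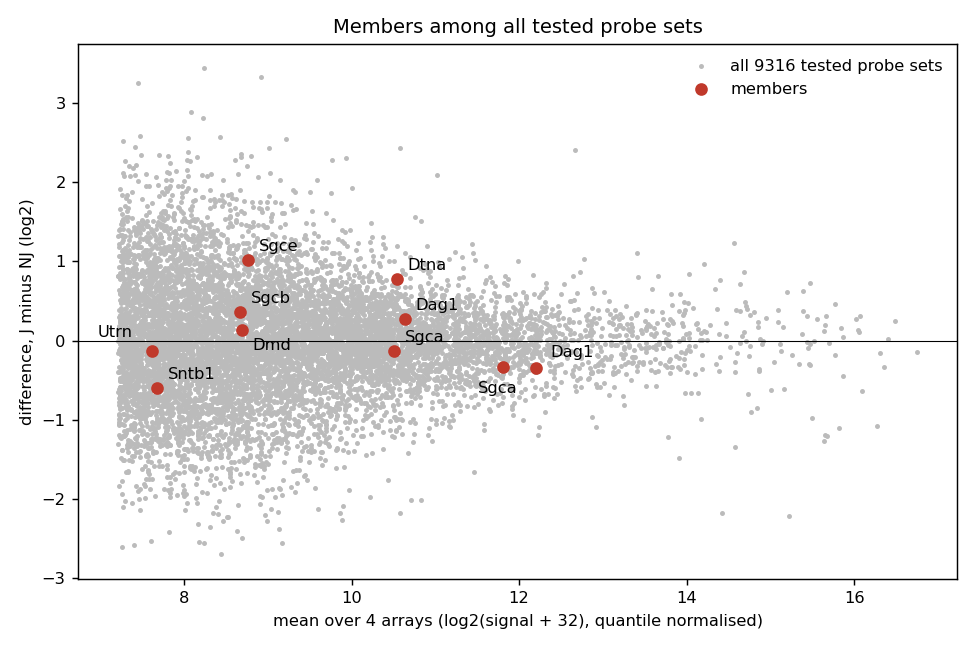
Difference of J minus NJ (log2) against the mean over the 4 arrays on the log2 scale for all 9316 tested probe sets (grey) and the 10 tested probe sets of the complex (red, labelled by gene). The members lie within the grey cloud, from −0.60 for Sntb1 to 1.02 for Sgce.

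Of 12 further proteins of the complex, 6 were on the array and 4 passed the brightness filter, with 1 positive and 3 negative differences, 0 of them past the test. Caveolin-3, Cav3, the muscle caveolin that binds beta-dystroglycan, had signals of 3735 and 7018 in J at 162297_s_at, against 2477 and 5372 in NJ, and its difference was 0.56 ± 0.45. At 99050_at it differed by 0.30 ± 0.41, with opposite signs in the 1a pair (0.69) and the 1c/1d pair (−0.10). The suffix of 162297_s_at, too, marks probes that match several transcripts. Sarcospan, Sspn, the small membrane protein bound to the sarcoglycans, had 1569 and 1660 in J and 2645 and 1310 in NJ, and its difference of −0.27 ± 0.46 was −0.78 in the 1a pair and 0.24 in the 1c/1d pair. Delta-sarcoglycan, Sgcd, a partner of Sgcb in assembly, had 169 and 144 in J and, on the NJ arrays, 171 and 185, and differed by −0.21 ± 0.77. The neuronal nitric oxide synthase Nos1, which syntrophin holds at the sarcolemma, had 53.1 and 266 in J and 95.9 and 232 in NJ, so that the arrays differed more by label than by group, and its difference of −0.28 ± 0.96 was −0.64 in the 1a pair and 0.09 in the 1c/1d pair. The beta-2 syntrophin Sntb2, with 148 and 99.2 in J and, on the NJ arrays, 104 and 34.0, and the dystrobrevin relative Dtnb, with 182 and 69.0 in J and, on the NJ arrays, 127 and 93.2, lay under the filter.

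Among 15 ligands and glycosylation enzymes of dystroglycan, 6 were on the array and 5 were tested, with 2 positive and 3 negative differences, a median of −0.10 and 0 past the test. Lama2, the laminin alpha-2 chain that alpha-dystroglycan binds, had 3200 and 2716 in J and, on the NJ arrays, 751 and 1272. The J arrays were clear of the NJ arrays, yet the difference of 1.56 ± 0.45 had a limma adjusted p of 0.9998. Hspg2, the heparan sulphate proteoglycan perlecan, differed by −0.75 ± 0.78 and Pomgnt1, which extends the O-mannosyl glycan of dystroglycan, by 0.27 ± 0.76. The Pomgnt1 value was −0.23 in the 1a pair and 0.76 in the 1c/1d pair. The 12 measured of 17 costamere and sarcolemma genes had 5 positive and 7 negative differences, a median of −0.02 and 0 past the test, and with each array centred on its median 3 were positive and 9 negative (median −0.24). Zyx, an adaptor of focal adhesions, was lowest at −1.87 ± 0.83, with 89.2 and 82.8 in J and, on the NJ arrays, 677 and 184. The actin linker vinculin, Vcl, differed by −0.83 ± 0.50 and the Z-disc protein Actn2 by −0.77 ± 0.64. Both rested on the 1a pair, where Vcl was at −1.77 and Actn2 at −1.35, against 0.12 and −0.19 in the 1c/1d pair.

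With earlier results of these data known, genes whose products mark the muscle side of the synapse were chosen and set beside the complex. Of 12 such genes 11 were tested, with 8 positive and 3 negative differences, a median of 0.50, groups without overlap in 6 (all higher in J, as for 13.6% of all probe sets), and 0 past the test. Their signals summed to 27915 and 27541 in J and, on the NJ arrays, 9657 and 12478, with Prkar1a (2.40 ± 0.39), Nes (2.09 ± 0.45) and Ache (1.87 ± 0.77) having the smallest p. Without Prkar1a and Nes, the brightest of the list, the sums were 9017 and 10099 in J and, on the NJ arrays, 6681 and 7607. Ache was at 3.35 in the 1a pair and 0.39 in the 1c/1d pair. The estimate of the brighter Utrn probe set, −0.14, lay below that median, but its interval, −2.00 to 1.72, includes it. The estimate of the dimmer Utrn probe set, under the brightness filter, lay above that median by less than its standard error. It was 0.90 ± 0.53 with no filter applied (limma, adjusted p = 0.9999). The skeletal muscle list had 7 positive and 7 negative differences, a median of −0.01 and 0 past the test, and this split turned with the scaling. On the deposited scale 2 were positive and 12 negative (median −0.52), and with each array centred on its median 0 were positive and 14 negative (median −0.58). After quantile normalisation Atp2a1, Myh4 and Mylpf lay at −1.27 ± 0.81, −1.07 ± 0.75 and −0.31 ± 0.39. These values came from the 1c/1d pair, at −2.50, −2.15 and −0.77, against −0.03, 0 and 0.15 in the 1a pair. Myh4 was the brightest probe set on both 1a arrays, so quantile normalisation fixed its 1a value at 0. On J 1c the signal of Myh4 was 18239 and that of Atp2a1 11054, the lowest of the 4 arrays for each.

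Among markers of the other cells of muscle 0 passed the test in each list. Smooth muscle markers Mylk, Acta2 and Cnn1 differed by 0.42 ± 0.38, 0.56 ± 0.52 and 0.80 ± 0.77, where Acta2 was at −0.03 in the 1a pair and 1.15 in the 1c/1d pair. Fibroblast markers had a median of 0.34, with Postn at 3.43 ± 0.81, Col6a1 at 1.02 ± 0.39 and Col1a1 at 0.67 ± 0.45. Schwann cell markers had 3 positive and 6 negative differences with a median of −0.24, which was −0.44 in the 1a pair and 0.25 in the 1c/1d pair, and S100b, Egr2 and Mbp differed by −1.18 ± 0.81, 1.11 ± 0.84 and −0.53 ± 0.57. Endothelial markers, of cells that also make utrophin, had 4 positive and 6 negative differences (median −0.13), or 3 and 7 with each array centred on its median, and sums of 14574 and 10012 in J and 12700 and 11887 in NJ, with Ptprb at −2.17 ± 0.72, Vwf at 1.87 ± 0.72 and Kdr at −1.40 ± 0.97. The 1a pair gave 3.24 for Vwf and −2.87 for Kdr, and the 1c/1d pair 0.50 and 0.06. Immune markers had 7 positive and 4 negative differences (median 0.05, with 0.13 in the 1a pair and −0.29 in the 1c/1d pair), with Fcer1g at −2.55 ± 0.82, S100a8 at 2.09 ± 0.75 and Cd68 at −0.69 ± 0.79, the last at −1.47 in the 1a pair and 0.09 in the 1c/1d pair.

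**Figure D5:**
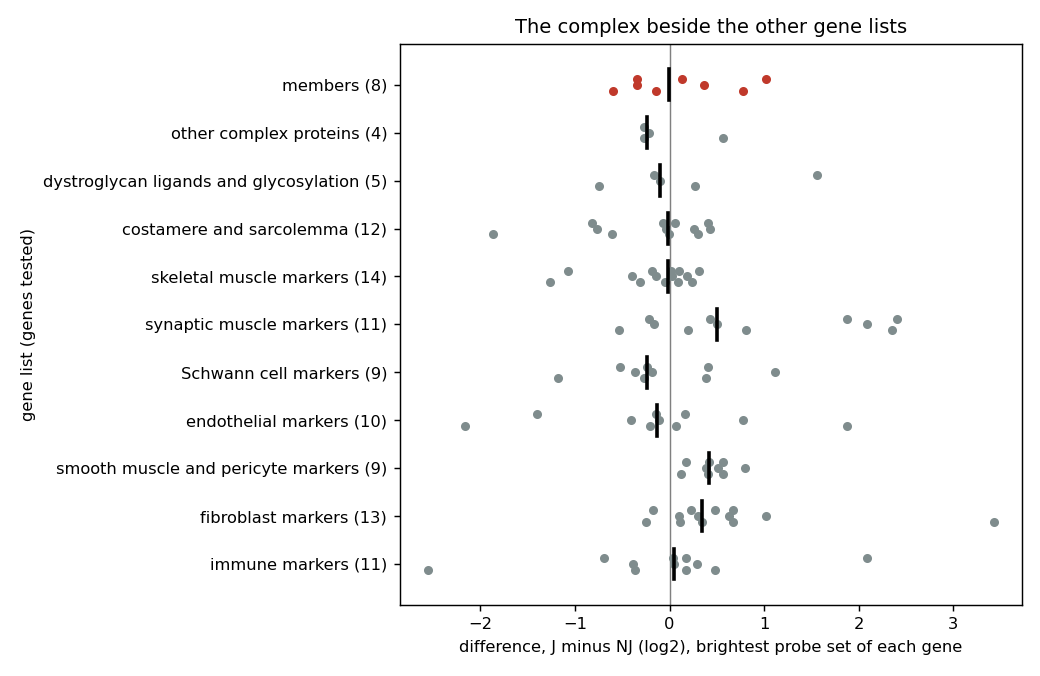
Difference of J minus NJ (log2) for each tested gene of the complex (red) and of 10 other lists (grey), at the brightest probe set of each gene, with a black bar at the list's median and the number of genes tested in brackets. The complex spreads around 0, while the synaptic list has a median of 0.50 and all 9 smooth muscle and pericyte genes lie above 0. All lists were chosen with earlier results of these data known. The skeletal muscle list, balanced here, has 0 of 14 genes above 0 with each array centred on its median.

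The genes nearest to Utrn and Dmd in their profile were found by the root mean square difference of mean-centred log2 values over the 4 arrays, among 6772 other named genes. Hcrt, Dpf3 and Ttk (the last a kinase of the spindle checkpoint) were nearest to Utrn, at 0.072, 0.084 and 0.090. Hcrt, the neuropeptide precursor of orexin, had signals of 497 and 250 on the J arrays, against 271 and 664 on the NJ arrays, the same high and low arrays as Utrn. Tmprss2, a serine protease, Smtn, the smooth muscle protein smoothelin, and Rab4b, a small GTPase, were nearest to Dmd, at 0.027, 0.040 and 0.040, and in each of them the 1a array was the higher in its group, as in Dmd. Dmd ranked 2966 among the genes by nearness to Utrn, at 0.67, and Utrn ranked 4121 by nearness to Dmd. With 4 arrays such nearness describes these arrays only.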

How the data were processed

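Titles put the 4 mouse muscle arrays in the groups J and NJ. The authors deposited linear intensities, 1 for each probe set on each array. The software that made them is not given in the sources used here, and the nearly equal 2% trimmed means show scaling by array. After 66 control probe sets were left out, 12422 remained, of which 10833 had 1 gene symbol, 396 had several and 1193 were not in the platform table. Intensities were taken as log2(value + 32) and quantile normalised, since column medians ranged from 8.29 to 8.67. Probe sets above the 25th percentile of the mean were tested in limma 3.58.1 under R 4.3.3, using lmFit and eBayes with trend = TRUE on 2 residual degrees of freedom, and Benjamini-Hochberg adjustment over all of them. Limma draws each variance toward a trend, so the standard errors do not measure the spread of a single probe set, and the number of arrays limits the precision. Utrn was set against the other members by exact permutation tests (scipy 1.17.1, Python 3.11.15). Figures were drawn with matplotlib 3.10.9. The fit was tested on simulated data with known changes.

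Every probe set of a member is named. Of other lists, the up to 3 genes with the smallest unadjusted p at their brightest probe set are named, and every measured gene of the further complex proteins. The members and lists were chosen with earlier results of these data known. Alternatives were the deposited scale, median centring, a pseudocount of 1 or of 100, filtering at the median or not at all, no intensity trend, a term for label 1a, each array left out, and the brightest probe set or the mean of the probe sets of a gene. Sums of a marker list without its brightest genes were added after seeing the data. No build is named for the array, so probe sets have no coordinates here. The windows around annotated starts come from RefSeq.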

Additional observations from a re-analysis of the deposited data

How the results depend on the processing

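The number of members called stayed at 0 under every alternative run. Among all probe sets, 8 were called with the term for label 1a. Leaving out single arrays gave 0 to 4 calls, the 4 without J 1a. The differences of Dag1 at 101109_at, Sgca at 160631_s_at, Sgce, Sntb1 and Dtna at 92183_at kept their sign under all alternatives, while those of the other 5 probe sets did not, and 11 of 138 values had the opposite sign. Those of Utrn at 92508_s_at were 0.79 in the 1a pair and −0.82 to 0.54 when single arrays were left out, and those of Sgcb −0.24 and −0.34 to 1.09. Leaving out single arrays gave −0.20 to 0.44 for Dmd, for Dag1 at 161183_at −0.17 to 0.69 and for Sgca at 103395_at −0.53 to 0.24. Utrn minus Dmd turned to 0.58 in the 1a pair and to 0.25 with the mean of the probe sets of a gene, which takes in the dim Utrn probe set, and lay between −1.21 and 0.65 when single arrays were left out. The cause was not tested. Where an array was left out, the lone array of its group was assumed to vary like the others. The mean of both Utrn probe sets lay under the brightness filter and was not tested, and at the filter at the median Utrn and Sntb1 dropped out. The labels do not define pairs of arrays throughout, since the groups share only the replicate label 1a and no label ties J 1c to NJ 1d. The fit with the term for label 1a has the design of a block of the 1a pair and the 1c/1d pair. The dim signals of Utrn and Sntb1 limit what their differences show.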
